A study of Mus musculus with 7 samples.

Results

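The genes described here are 10 genes of the interleukin-4 (IL-4) response of macrophages: Chil3, Retnla, Ccl24, Il4ra, Stat6, Irf4, Socs2, Tgm2, Ear2 and Klf4. They are 10 of 53379 genes in the deposited count table, and all 10 were among the 16234 genes that passed the filter on low counts. The members were chosen by name with measured values of these libraries known, with the question which of them vary together between mice of the same group, so their spread and their correlations within groups are given as a description without a test. RNA came from macrophages sorted out of MC38 tumours, a mouse colon carcinoma line, 21 days after implantation. The 3 Gpr65 knockout mice and the 4 Gpr65 wild-type mice were all C57BL/6J and all ate a high-fat diet, so no group without the diet is compared. The sort took cells positive for CD45, CD11b and F4/80, and the sources used here do not say how the knockout allele was made or in which cells. Each library came from 1 mouse, named below by its genotype and mouse number.

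IL-4 and the related cytokine IL-13 bind receptors that contain the chain encoded by Il4ra, and Janus kinases at the receptor then phosphorylate the transcription factor STAT6. STAT6 enters the nucleus and, together with factors such as IRF4 and KLF4, switches on a set of macrophage genes, among them the secreted proteins Chil3 (also called Ym1), Retnla (also called Fizz1) and the chemokine Ccl24. In mice this programme is known from helminth infection and allergy, and macrophages of tumours are often described by the same genes.

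Library totals lay between 26253675 and 30483733 counts in knockout mice and between 22449772 and 28024612 in wild-type mice. Of the 16234 tested genes, 940 had no count in knockout 1, against 51 to 281 in the other 6 libraries. Gpr65 had a log2 fold change of -6.62 in knockout against wild-type macrophages (SE 0.305, edgeR adjusted p = 8e-05). The listed macrophage markers, among them Adgre1 (F4/80), Csf1r and Itgam (CD11b), summed to 14294 to 27570 CPM (counts scaled to library size) in knockout and 14785 to 16881 CPM in wild-type libraries, and 10 of 10 were tested. In RNA from a bulk sort, fewer cells that express a gene and less RNA of it per cell cannot be told apart.

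Chil3, Retnla, Ccl24 and Ear2 differed between mice of the same genotype far more than most genes, while the receptor Il4ra and its transcription factor Stat6 hardly varied. Among wild-type mice the highest library exceeded the lowest 196-fold for Chil3, 177-fold for Retnla, 381-fold for Ccl24 and 291-fold for Ear2, beside 1.22-fold for Il4ra and 1.34-fold for Stat6. Among knockout mice the same ratio was smaller, at 16 for Chil3, 2.8 for Retnla, 30.2 for Ccl24 and 7.16 for Ear2, beside 1.5 for Il4ra and 1.81 for Stat6, and that of Retnla was close to the 2.64 of Tgm2. Wild-type 2 and wild-type 4 were the high mice, and within the knockout group knockout 1 was highest for Chil3, Ccl24 and Ear2. No member differed between genotypes past the threshold.

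Il4ra (ENSMUSG00000030748, chr7:125552120-125579474, plus strand, GRCm38) encodes the shared receptor chain for IL-4 and IL-13. It measured 441, 663 and 604 CPM in knockout 1 to 3, against 620, 544, 571 and 510 CPM in wild-type 1 to 4. Knockout 1 was the lowest library and knockout 2 the highest, and the groups overlapped. The group means were 570 ± 115 CPM in knockout (SD, n = 3) and 561 ± 46.8 CPM in wild-type mice (SD, n = 4), with a log2 fold change of 0.02 (SE 0.19, edgeR adjusted p = 1).

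Stat6 (ENSMUSG00000002147, chr10:127642986-127660957, plus strand) encodes the transcription factor that the IL-4 receptor activates. Its level was 184, 332 and 295 CPM in knockout 1 to 3, against 338, 267, 324 and 252 CPM in wild-type 1 to 4. The order of the mice was the same as for Il4ra within each genotype, with knockout 2 above knockout 3 above knockout 1, and wild-type 1 above 3, 2 and 4. Knockout minus wild type was -0.13 on the log2 scale (SE 0.23), with an edgeR adjusted p of 1. Stat6 overlaps Nab2 on the opposite strand, which had 8409 counts over the 7 libraries, and the sources used here do not say if reads were counted by strand.

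Irf4 (ENSMUSG00000021356, chr13:30749226-30766976, plus strand) encodes a transcription factor that cooperates in IL-4 type activation of macrophages. It had 19.7, 3.82 and 17.2 CPM in knockout 1 to 3, against 3.2, 18.8, 9.79 and 15 CPM in wild-type 1 to 4. The lowest mouse of each genotype, knockout 2 and wild-type 1, stood well below its group. Its log2 fold change in knockout mice of 0.22 had an SE of 0.64 and an edgeR adjusted p of 1.

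Klf4 (ENSMUSG00000003032, chr4:55527143-55532466, minus strand) encodes a zinc-finger factor that works with STAT6 in macrophages. It had 140, 247 and 267 CPM in knockout 1 to 3, against 107, 267, 171 and 267 CPM in wild-type 1 to 4. Here knockout 1 was the lowest knockout mouse, the reverse of its place for Chil3, Ccl24 and Ear2. For knockout minus wild type edgeR gave 0.10 on the log2 scale, with an SE of 0.35 and an adjusted p of 1.

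Socs2 (ENSMUSG00000020027, chr10:95385362-95417180, minus strand) encodes a suppressor of cytokine signalling that cytokine receptors induce and that dampens them. Its level was 19.1, 7.04 and 18 CPM in knockout 1 to 3, against 9.24, 85.9, 9.95 and 48.9 CPM in wild-type 1 to 4. Wild-type 2 and wild-type 4 were above every other library, and wild-type 1 and 3 lay within the knockout range. Socs2 had a log2 fold change of -1.39, and the SE of 0.78 left it at an edgeR adjusted p of 1.

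The secreted and enzymatic targets follow. Promoters of 7 of the 10 members were found in the RefSeq table (GRCm38.p6), each 250 bases before to 50 bases after the start that RefSeq gives. For Retnla and Il4ra this start lies downstream of the first base of the gene coordinates given in the text, so distances to those coordinates differ. Those of Retnla, Chil3 and Ear2, which varied together, and of Il4ra, which did not vary with them, are shown 5′ to 3′ because they let the start regions of genes on both sides of that split be compared. Capitals mark matches on either strand to 3 motifs: TTCNNNNGAA, the spacing that STAT6 prefers, TTCNNNGAA, the spacing of other STAT factors, and TTGCNNAA, a short form of the C/EBP site. No match overlapped another.
Retnla (chr16:48842359-48842658, plus strand): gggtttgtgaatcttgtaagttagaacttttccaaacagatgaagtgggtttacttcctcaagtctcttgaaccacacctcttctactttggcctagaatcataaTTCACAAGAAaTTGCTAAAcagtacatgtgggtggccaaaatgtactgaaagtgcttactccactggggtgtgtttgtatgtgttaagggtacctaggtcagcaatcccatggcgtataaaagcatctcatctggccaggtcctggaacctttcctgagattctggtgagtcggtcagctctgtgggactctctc
Chil3 (chr3:106167515-106167814, minus strand): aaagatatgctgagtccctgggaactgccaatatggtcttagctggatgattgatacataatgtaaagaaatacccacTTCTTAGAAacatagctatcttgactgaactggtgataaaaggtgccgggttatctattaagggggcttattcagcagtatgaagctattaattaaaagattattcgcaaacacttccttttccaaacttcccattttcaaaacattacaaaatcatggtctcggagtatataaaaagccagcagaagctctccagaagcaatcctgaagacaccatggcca
Ear2 (chr14:44102404-44102703, plus strand): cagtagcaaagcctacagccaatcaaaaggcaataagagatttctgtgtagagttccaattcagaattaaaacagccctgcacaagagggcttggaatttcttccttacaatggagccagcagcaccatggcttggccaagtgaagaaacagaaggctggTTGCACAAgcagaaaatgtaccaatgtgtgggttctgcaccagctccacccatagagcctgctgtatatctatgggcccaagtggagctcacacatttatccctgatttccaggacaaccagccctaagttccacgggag
Il4ra (chr7:125552021-125552320, plus strand): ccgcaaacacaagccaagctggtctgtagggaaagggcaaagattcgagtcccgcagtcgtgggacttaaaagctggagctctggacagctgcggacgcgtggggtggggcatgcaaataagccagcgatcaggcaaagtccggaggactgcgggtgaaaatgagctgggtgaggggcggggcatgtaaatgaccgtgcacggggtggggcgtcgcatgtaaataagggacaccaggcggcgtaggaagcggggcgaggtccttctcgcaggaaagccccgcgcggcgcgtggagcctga

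Retnla held TTCACAAGAA starting 145 bases before its RefSeq start and TTGCTAAA 134 bases before it. Chil3 held TTCTTAGAA at 172 bases before its start, and Ear2 held TTGCACAA at 90 bases before its start. Il4ra, Stat6, Irf4 and Klf4 held none of the 3 motifs in this window. Over all 32851 promoters of the table, TTCNNNNGAA occurred in 6.95%, TTCNNNGAA in 8.3% and TTGCNNAA in 10.8%. A match to a short motif is a description of these letters and not a site shown to be bound. Ccl24, Socs2 and Tgm2 are the members without an entry in the table.

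Chil3 (ENSMUSG00000040809, chr3:106147554-106167564, minus strand) encodes a secreted chitinase-like protein without chitinase activity. It had 152, 10.3 and 9.48 CPM in knockout 1 to 3, against 16.6, 3241, 30.6 and 707 CPM in wild-type 1 to 4. Wild-type 2 and wild-type 4 were above all other libraries, knockout 1 came next, and wild-type 1 and 3 lay between knockout 1 and the other knockout mice. The group means were 57.3 ± 82.2 CPM in knockout (SD, n = 3) and 999 ± 1529 CPM in wild-type mice (SD, n = 4), so each SD exceeded its mean. With an SE of 1.91, the log2 fold change of -4.12 had an edgeR adjusted p of 0.946.

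Retnla (ENSMUSG00000061100, chr16:48842551-48844461, plus strand) encodes a small secreted resistin-like protein. It had 4.1, 1.59 and 4.45 CPM in knockout 1 to 3, against 1.41, 250, 1.43 and 168 CPM in wild-type 1 to 4. In scaled CPM the 2 low wild-type mice were just below knockout 2. This was a near-tie, since wild-type 1 and 3 had 34 and 43 counts and knockout 2 had 39. The 2 high wild-type mice had 6485 and 4605 counts. The group means were 3.38 ± 1.56 CPM in knockout (SD, n = 3) and 105 ± 125 CPM in wild-type mice (SD, n = 4). For Retnla edgeR gave a log2 fold change of -4.96, an SE of 1.79 and an adjusted p of 0.846.

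Ccl24 (ENSMUSG00000004814, chr5:135569937-135573049, minus strand) encodes eotaxin-2, a chemokine that attracts eosinophils through the receptor CCR3. It had 346, 11.5 and 42.3 CPM in knockout 1 to 3, against 6.32, 2411, 27.3 and 998 CPM in wild-type 1 to 4. Knockout 1 was above wild-type 1 and wild-type 3 and below wild-type 2 and wild-type 4. The group means were 133 ± 185 CPM in knockout (SD, n = 3) and 861 ± 1132 CPM in wild-type mice (SD, n = 4), and a log2 fold change of -2.69 (SE 1.82) had an edgeR adjusted p of 1.

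Ear2 (ENSMUSG00000072596, chr14:44102654-44103534, plus strand) encodes an eosinophil-associated ribonuclease. It had 11.7, 1.63 and 10.6 CPM in knockout 1 to 3, against 1.12, 327, 4.78 and 135 CPM in wild-type 1 to 4. Wild-type 1 was the lowest of the 7 libraries and wild-type 2 the highest, so the knockout mice lay inside the wild-type range. Ear2 had a log2 fold change of -3.87, an SE of 1.68 and an edgeR adjusted p of 0.923.

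Ear2 and Chil3 belong to families of near-identical copies, so their counts are less certain than those of Retnla and Ccl24. Of the 50-base words in Ear2 transcripts, 41.5% also occur in another gene, with Ear10 and Ear1 sharing the most, and for Chil3 26.9% do, in Chil4 and Gm6522. The copies themselves had few counts: 3 for Ear10, 0 for Ear1, 54 for Ear6, 49 for Chil4 and 3 for Gm6522, summed over the 7 libraries. Retnla and Ccl24 shared no 50-base word with another gene.

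Tgm2 (ENSMUSG00000037820, chr2:158116402-158146436, minus strand) encodes transglutaminase 2, a protein-crosslinking enzyme. It had 500, 576 and 1322 CPM in knockout 1 to 3, against 367, 1084, 603 and 1084 CPM in wild-type 1 to 4. Knockout 3, and not knockout 1, was the highest knockout mouse. Knockout minus wild type was 0.03 for Tgm2 on the log2 scale (SE 0.45), with an edgeR adjusted p of 1. Of its 50-base words 18.7% also occur in the overlapping genes Gm20412 and Rprd1b, the second with 9517 counts.

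**Figure D1:**
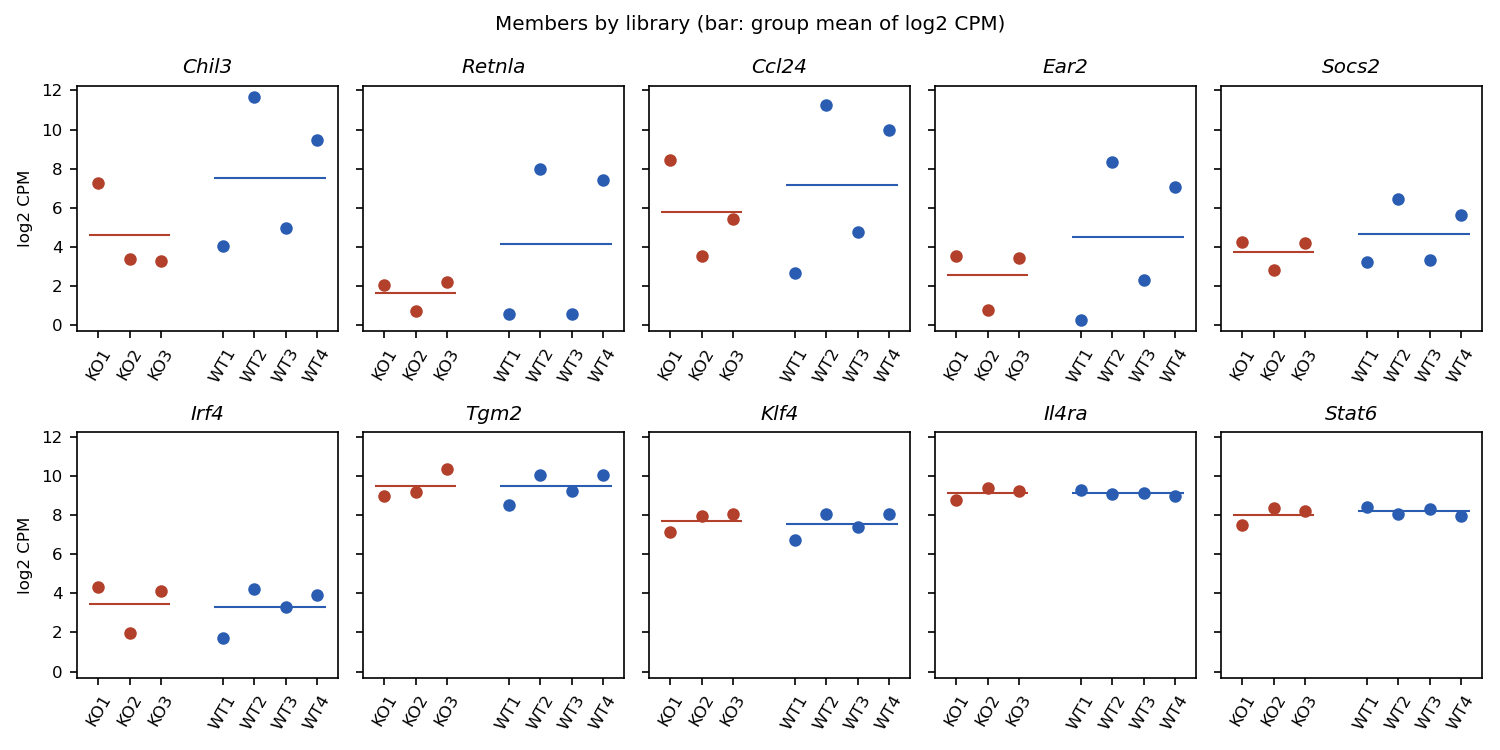
Expression of the 10 members in each library as log2 CPM (vertical axis), with knockout mice 1 to 3 (KO, red) left of wild-type mice 1 to 4 (WT, blue) and a bar at each group's mean. Wild-type 2 and wild-type 4 stand highest for Chil3, Retnla, Ccl24, Ear2 and Socs2, while Il4ra and Stat6 stay close to level across all 7 libraries.

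Per kilobase of exon, which allows levels of different genes to be compared, the mean over the 7 libraries was 424 CPM per kb for Ccl24 and 365 for Chil3. Tgm2 followed with 172 CPM per kb, Retnla with 103, Ear2 with 97.8 and Il4ra with 94.1. Klf4 had 68.7 and Stat6 64.6 CPM per kb, and the regulators Socs2 and Irf4 were lowest with 2.97 and 2.55. These means stand over unequal mice, since single libraries of Ccl24 lay between 6.32 and 2411 CPM.

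The spread between mice of the same genotype set 4 of the targets apart from the other members. The within-group SD of log2 CPM was 3.54 for Ccl24, 3.22 for Retnla, 3.16 for Chil3 and 3.14 for Ear2, each larger than in at least 99.9% of tested genes. Socs2 had 1.35 and Irf4 1.20, above 90.8% and 87.9% of tested genes. Tgm2 (0.76) and Klf4 (0.58) were nearer the median of 0.40 over all tested genes, and Stat6 (0.33) and Il4ra (0.22) were below it.

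The comparison of genotypes asks whether the absence of Gpr65, a receptor that senses extracellular protons, went with another level of IL-4 type activation. Of 10 members, 0 passed an edgeR adjusted p of 0.05, beside 6 of all 16234 tested genes (0.037%). Before adjustment, edgeR's quasi-likelihood test gave 0.0222 for Retnla and 0.0471 for Ear2, and 871 of all tested genes were below 0.05. In 0 of 10 members were the groups free of overlap, against 994 tested genes (6.12%). The fold changes of Chil3, Retnla, Ccl24 and Ear2 were the lowest of the 10 and also had the largest SE, from 1.68 to 1.91. Their size depended on the fit: limma voom, which works on log values with library weights, gave -2.3 for Chil3, -0.709 for Retnla, -0.536 for Ccl24 and -0.533 for Ear2. Without scaling factors the fold changes of Il4ra, Tgm2 and Klf4, which lay at 0.02 to 0.10, were below 0.

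**Figure D2:**
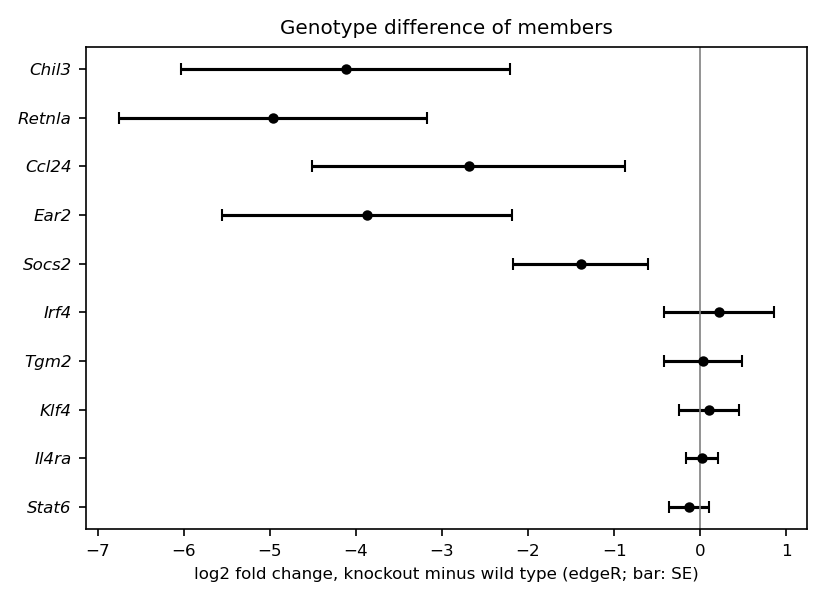
Log2 fold change of each member in knockout against wild-type macrophages (horizontal axis, edgeR), with bars of 1 SE; values left of 0 are lower in knockout. Chil3, Retnla, Ccl24 and Ear2 lie left of 0 with SEs of 1.68 to 1.91, and Il4ra, Tgm2 and Klf4 lie at 0.02 to 0.10 (below 0 without scaling factors).

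Covariation between mice was measured as Pearson's r of log2 CPM over the 7 libraries after the mean of each library's own group was removed, which leaves 5 degrees of freedom. Chil3, Retnla, Ccl24, Ear2 and Socs2 varied together: all 10 pairs among them had an r between 0.89 and 0.98. Ear2 with Socs2 (0.98) and Chil3 with Ccl24 (0.97) were closest, and Chil3 with Retnla (0.89) least close. Without any single library the lowest r among these 10 pairs was 0.81.

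These values partly rested on the high wild-type mice. Without wild-type 2 and wild-type 4 together, an alternative chosen after these values were seen, 5 of the 10 pairs stayed at 0.8 or above. Retnla with Socs2 was then at 0.99 and Chil3 with Ccl24 at 0.90, but Chil3 with Retnla was then at 0.41 and Chil3 with Socs2 and with Ear2 at 0.53. Within the knockout group the order of mice differed between members: Chil3 was highest in knockout 1 and lowest in knockout 3, Retnla highest in knockout 3 and lowest in knockout 2, and Ccl24, Ear2 and Socs2 highest in knockout 1 and lowest in knockout 2. Some of these places were near-ties. Retnla had 121 counts in knockout 3 and 120 in knockout 1, and Chil3 had 258 counts in knockout 3 and 252 in knockout 2. All 5 genes had the same order in wild-type mice, with mouse 2 above 4, 3 and 1, though Retnla was nearly equal in mouse 3 (1.43 CPM) and mouse 1 (1.41 CPM).

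Irf4 varied with Ccl24 (r = 0.85), Ear2 (0.85) and Socs2 (0.82), and less closely with Chil3 (0.73) and Retnla (0.69). Il4ra and Stat6 varied together (0.98) and against Chil3 and Ccl24. Stat6 had an r of -0.80 with Ccl24 and -0.79 with Chil3, and Il4ra had -0.73 with Ccl24 and -0.70 with Chil3. Knockout 1, with the most Chil3 and Ccl24 of its group, had the least Stat6 (184 CPM), and wild-type 2 and wild-type 4 had less Stat6 (267 and 252 CPM) than wild-type 1 and wild-type 3 (338 and 324 CPM).

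Tgm2 and Klf4 formed a further pair (r = 0.89), and their relation to the other genes changed when knockout 1 was left out. Klf4 had an r of 0.51 with Ccl24 over all libraries and 0.96 without knockout 1, and Tgm2 with Ccl24 had 0.60 and 0.90. Tgm2 with Il4ra had -0.07 over all libraries and -0.95 without knockout 1. Knockout 1 had high Chil3 and Ccl24 but low Klf4, Tgm2, Il4ra and Stat6, and it is also the library with 940 tested genes at 0 counts. The part of that library's detection in these values was not tested.

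In all, 15 of the 45 member pairs had an r of 0.8 or more, against 5.16% of all pairs of tested genes. The members were chosen with such values known, so nothing is read from this difference. The share of all tested genes at or above 0.8 depended on the member and was 8.91% for Chil3, 7.72% for Ccl24, 5.75% for Retnla, 5.73% for Socs2 and 5.68% for Ear2. It was 12.2% for Stat6 and 11.6% for Il4ra, and lowest for Irf4 at 2.93%, with 4.55% for Klf4 and 3.45% for Tgm2. The count of pairs was 26 without knockout 1 and 29 in the 4 wild-type libraries alone.

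**Figure D3:**
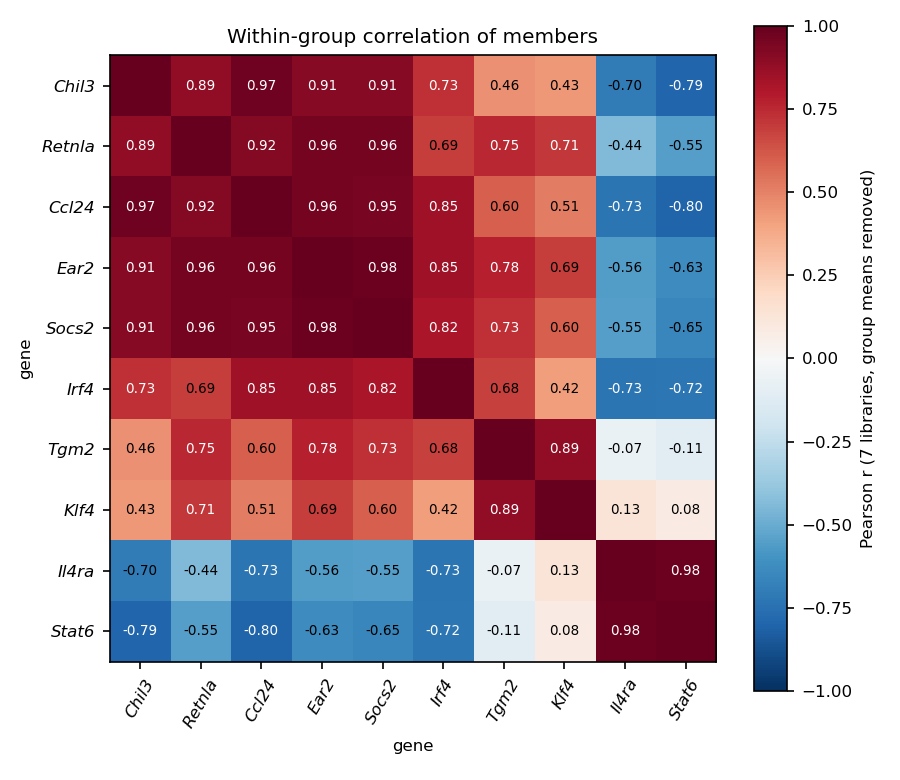
Pearson's r between members over 7 libraries with group means removed; both axes list the 10 genes and colour runs from -1 (blue) to 1 (red). The block of Chil3, Retnla, Ccl24, Ear2 and Socs2 lies between 0.89 and 0.98, Tgm2 pairs with Klf4 (0.89), and Il4ra pairs with Stat6 (0.98) with negative values against Chil3 and Ccl24.

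The genes most like Chil3, Retnla and Ccl24 were ranked by the same r among genes with a mean log2 CPM of at least 1. For Ccl24 the closest was Ccl17 (r = 0.995), a chemokine that IL-4 also induces, with 71.7, 4.92 and 10.4 CPM in knockout 1 to 3, against 2.7, 141, 6.9 and 74.3 CPM in wild-type 1 to 4. Tmem238, the growth factor gene Hbegf, the respiratory chain subunit gene Cox6c and Rgcc followed, with r from 0.988 to 0.993. Hbegf had 8.68, 2.2 and 3.31 CPM in knockout 1 to 3, against 1.25, 44, 3.02 and 26.6 CPM in wild-type 1 to 4.

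For Chil3 the closest were the kinase gene Vrk1 (0.999), the respiratory chain gene Uqcrfs1 (0.998), and Rps26, Nedd8 and Psme2 (0.997 each), which encode a ribosomal protein, a ubiquitin-like modifier and a proteasome activator subunit. Vrk1 had 70.7, 43.4 and 44.9 CPM in knockout 1 to 3, against 46.6, 111, 51.5 and 87.6 CPM in wild-type 1 to 4, so its wild-type mice came in the order of Chil3 over a much smaller range, with knockout 1 again the highest knockout mouse. For Retnla the closest were Pfdn1 (0.992), Chchd10 (0.988), the metalloproteinase gene Mmp19 and Insl6 (0.985 each) and the uridine phosphorylase gene Upp1 (0.983). With 7 libraries, 1446 of 16233 other tested genes reached 0.8 with Chil3, so a high r by itself is common.

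The other genes of the pathway were taken from lists by role that hold 69 genes, the 10 members included, of which 60 were tested. None passed the edgeR threshold in either direction, 19 fold changes were positive and 41 negative, and the median was -0.28, against -0.00 over all tested genes with 49.7% positive. The ligand Il4 had 82 counts over all 7 libraries and Il13 had 49, and Il4 was the 1 of 5 listed ligands that passed the filter on low counts. Il4 measured 0.854, 0.0814 and 0.515 CPM in knockout 1 to 3, against 0.208, 1.08, 0.166 and 0.11 CPM in wild-type 1 to 4. Its highest library was wild-type 2, as for Chil3, but wild-type 4 was its lowest wild-type library. Il13, below the filter, was highest in wild-type 4, with 0.205, 0 and 0 CPM in knockout 1 to 3, against 0, 0.154, 0 and 1.43 CPM in wild-type 1 to 4. The list of 5 also holds Il33, Tslp and Il25, which encode cytokines with receptors other than those of IL-4 and IL-13. Il33 and Tslp each had 0.502 CPM in wild-type 2, and they had 0.95 and 0.292 CPM in wild-type 4, while Il25 had 0 counts. All 5 genes together came to 1.06, 0.203 and 0.698 CPM in knockout 1 to 3, against 0.624, 2.24, 0.73 and 2.78 CPM in wild-type 1 to 4. Their log2 sum had an r of 0.85 with Chil3, against 0.60 for Il4 alone.

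Signalling genes and transcription factors of the pathway were set beside Chil3 in the same way. Of 3 tested receptor chains, 4 kinases and 3 signal adaptors, 0 had an r of 0.8 or more with Chil3. Il13ra1, the second chain of the receptor that binds IL-13, had an r of -0.86 with Chil3 and Il2rg, the common gamma chain, 0.02. Of the kinases, Jak1 had -0.57 and Jak3 -0.84, Tyk2 had -0.78 and Jak2 had 0.61 with its highest library in wild-type 2 (279 CPM), and of the adaptors Akt1 had -0.31 and Irs2, which the IL-4 receptor recruits, 0.09. Among 11 tested transcription factors 2 reached 0.8, Cebpb (0.96) and, named after its value was seen, Batf3 (0.84), while Bhlhe40 had 0.67. Cebpb, a C/EBP factor, had 814, 611 and 545 CPM in knockout 1 to 3, against 627, 1207, 530 and 979 CPM in wild-type 1 to 4, and a log2 fold change of -0.35 (SE 0.31) with an edgeR adjusted p of 1.

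Among 8 tested inhibitors, which hold the member Socs2, 2 reached 0.8. The 2 most expressed did not: Dusp1, a phosphatase of MAP kinases, had -0.15 and Socs3, which restrains other cytokine receptors, -0.18. Cish, a STAT-induced relative of Socs2 named here after its values were seen, had 0.86, with 41, 15.5 and 45.8 CPM in knockout 1 to 3, against 9.36, 75.1, 16.7 and 53.1 CPM in wild-type 1 to 4.

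Of the listed targets, 25 that are no members were tested, and 15 had an r of 0.8 or more with Chil3, with a median of 0.86 and a range from -0.29 to 0.98. Their log2 fold changes were positive in 2 and negative in 23, with a median of -0.95, and 0 passed the threshold (edgeR adjusted p from 0.73 to 1). Over all tested genes 49.7% were positive. Since most of these targets varied together between mice, their signs do not count as separate results. The most expressed were Arg1, which encodes arginase 1, and Clec7a, which encodes the beta-glucan receptor Dectin-1. Arg1 had 1733, 233 and 944 CPM in knockout 1 to 3, against 589, 6421, 673 and 4939 CPM in wild-type 1 to 4, and an r of 0.91. Clec7a had 335, 453 and 659 CPM in knockout 1 to 3, against 178, 2073, 302 and 996 CPM in wild-type 1 to 4, and an r of 0.77. Both had their 2 highest libraries in wild-type 2 and wild-type 4.

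Further targets named after their values were seen show how far the shared pattern went. The lectin gene Mgl2 had 278, 33.8 and 200 CPM in knockout 1 to 3, against 48.8, 1022, 87.6 and 705 CPM in wild-type 1 to 4 (r = 0.89). The mannose receptor gene Mrc1 had 236, 104 and 208 CPM in knockout 1 to 3, against 210, 498, 139 and 394 CPM in wild-type 1 to 4 (r = 0.84). Ccl22, which shares its receptor with Ccl17, had an r of 0.94. F13a1, a coagulation factor gene that IL-4 induces in human monocytes, had an r of -0.29, with 88.2, 26.6 and 19.6 CPM in knockout 1 to 3, against 221, 50.7, 136 and 79.5 CPM in wild-type 1 to 4. Its knockout mice came in the order of Chil3, while wild-type 2 and wild-type 4 were its lowest wild-type mice. Ch25h had an r of -0.13 and Clec4a2 of 0.17.

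**Figure D4:**
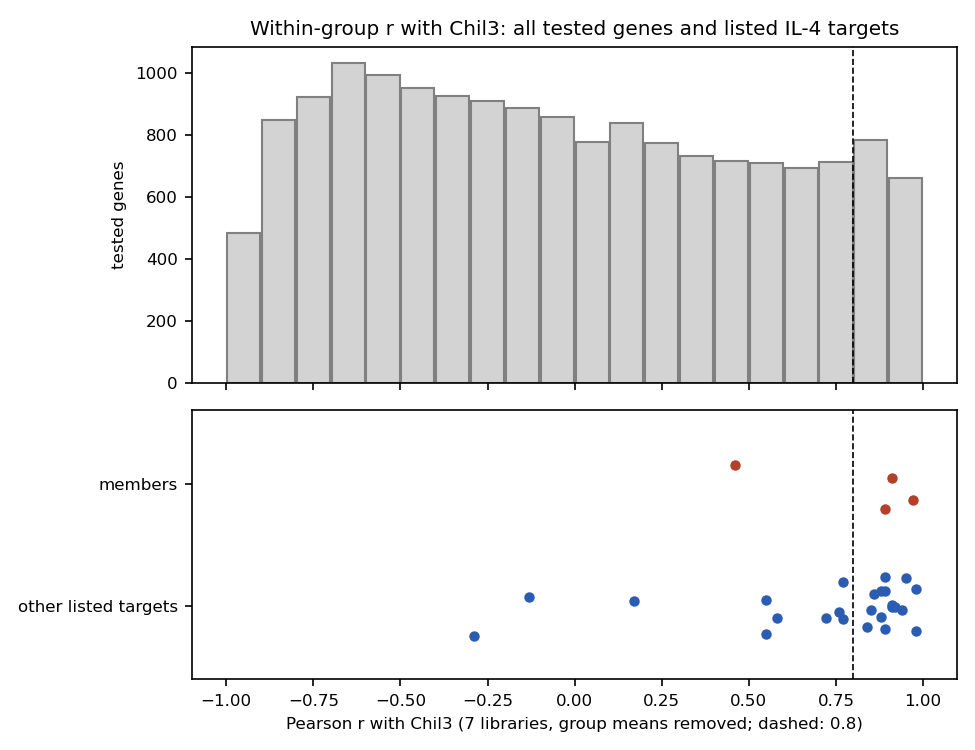
Within-group r with Chil3 over 7 libraries (horizontal axis) for all other tested genes as a histogram (top, number of genes) and for the listed IL-4 targets as points (bottom; members red, other targets blue, vertical scatter without meaning). Of 25 other targets 15 lie at or right of the dashed line at 0.8, beside 8.91% of all tested genes.

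Markers of other cells moved with the targets to different degrees, and their part in the covariation was not tested. Eosinophil markers other than the members, of which 8 were measured and 2 tested, summed to 3.62, 3.3 and 3.53 CPM in knockout 1 to 3, against 1.04, 24.5, 2.22 and 7.6 CPM in wild-type 1 to 4. Their log2 sum had an r of 0.89 with Chil3, 0.93 with Ear2 and 0.88 with Ccl24. Of the defining eosinophil genes, the peroxidase gene Epx had 1 count over all libraries and Ear1 0, while Prg2 had 211 counts, at 0 CPM in the 3 knockout libraries, against 0, 5.94, 0.265 and 1.79 CPM in wild-type 1 to 4. Ccr3, the receptor for Ccl24, reached 10.2 CPM in wild-type 2.

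Dendritic cell markers, with 9 of 9 tested, summed to between 58.6 and 85.8 CPM in knockout and 39.9 and 241 CPM in wild-type libraries, highest in wild-type 2 (r of the sum 0.76 with Chil3, 0.75 with Irf4). Ccr7 made up 170 of the 241 CPM in wild-type 2 and had an r of 0.77 with Chil3. Xcr1 (-0.74), Dpp4 (-0.17) and Siglech (-0.08) had a negative r with Chil3. The remaining dendritic cell markers lay between 0.59 (Flt3) and 0.89 (Ffar2). Neutrophil markers, with 7 of 12 tested and Ly6g at 0 counts, summed to 88 to 184 CPM in knockout and 83.7 to 216 CPM in wild-type libraries (r = 0.39 with Chil3, 0.73 with Klf4). Most of the neutrophil sum was Csf3r (r = -0.24 with Chil3), and the other 6 tested markers had a positive r, with Mmp8 at 0.98, Cxcr2 at 0.85, S100a8 at 0.76, S100a9 at 0.62 and Retnlg at 0.60. Retnlg, a relative of Retnla, had 0, 0.122 and 0.551 CPM in knockout 1 to 3, against 0.874, 48.6, 2.82 and 10.6 CPM in wild-type 1 to 4. Monocyte markers without Chil3, with 8 of 9 tested and Treml4 at 0, ranged from 363 to 594 CPM in knockout and from 731 to 971 CPM in wild-type libraries, without overlap and with an r of 0.40 with Chil3. Most of the monocyte sum was Ccr2 (r = 0.21), with 489, 428 and 294 CPM in knockout 1 to 3, against 871, 792, 621 and 625 CPM in wild-type 1 to 4. Ccr2 did not pass the threshold (edgeR adjusted p = 0.73), and 6.12% of all tested genes had groups without overlap. Markers of cavity and alveolar macrophages, cells known for Chil3 and Ear2, ranged from 263 to 501 CPM in knockout and 319 to 464 CPM in wild-type libraries (r = -0.22 with Chil3), with 4 of 9 tested and Ear1, Marco and Fabp1 at 0. Nearly all of that sum was Itgax, which many macrophages and dendritic cells express (r = -0.25), and Pparg had -0.56, while the other 2 tested markers, Siglecf and Serpinb2, had 0.77 each. Car4, below the filter, had 0.0342, 0 and 0 CPM in knockout 1 to 3, against 0, 5.02, 0 and 1.17 CPM in wild-type 1 to 4.

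Basophil and mast cell markers, with 3 of 8 tested and Ms4a2 at 0, summed to 5.7 to 9.12 CPM in knockout and 7.16 to 19.5 CPM in wild-type libraries (r = 0.45 with Chil3, 0.79 with Irf4). None of the 3 tested markers followed Chil3 by itself, with Kit at -0.31, Gata2 at -0.38 and Tpsb2 at 0.10. Kit made up 12.5 of the 12.7 CPM in wild-type 2 and was at 0 in knockout 1. Endothelial markers, with 4 of 8 tested and Cldn5 at 0, summed to 33.8 to 60.4 CPM in knockout and 34.4 to 174 CPM in wild-type libraries (r = 0.69 with Chil3, 0.80 with Tgm2, 0.79 with Klf4). Pecam1, which leukocytes also express, made up 163 of the 174 CPM in wild-type 2 and had an r of 0.64 with Chil3, against 0.26 for Vwf, 0.17 for Cdh5 and -0.66 for Kdr. Epithelial and MC38 tumour markers, with 3 of 8 tested, summed to 41.9 to 168 CPM in knockout and 126 to 451 CPM in wild-type libraries (r = 0.90 with Chil3), almost all of it from Cdh1, which is also a listed IL-4 target.

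Resident-type macrophage markers, with 5 of 9 tested and Cd209f and Cd209g at 0, summed to 571 to 887 CPM in knockout and 921 to 1170 CPM in wild-type libraries, without overlap and with an r of 0.01 with Chil3. That sum joins Stab1 (r = -0.69) with Mrc1 (0.84), which is also a listed IL-4 target. Each of these genes overlapped between the groups. Stab1 lay at 466 to 642 CPM in knockout and 409 to 953 CPM in wild-type libraries, and Mrc1 at 104 to 236 and 139 to 498 CPM. Of all tested genes, 6.12% had groups without overlap. T and type 2 lymphoid cell markers, with 9 of 9 tested, summed to 38.3 to 378 CPM in knockout and 74.2 to 159 CPM in wild-type libraries (r = -0.11 with Chil3, 0.82 with Tgm2). Fibroblast markers, with 7 of 8 tested, summed to 51.2 to 302 CPM in knockout and 124 to 333 CPM in wild-type libraries (r = 0.40 with Chil3). Neither lymphoid nor fibroblast sums had an r of 0.8 or more with Chil3, Retnla, Ccl24, Ear2 or Socs2. In each of these 2 lists 1 tested marker reached 0.8 with Chil3, Il1rl1 (0.90, and 0.92 with Retnla) and Dcn (0.80). Il1rl1 had 5.5, 3.13 and 4.6 CPM in knockout 1 to 3, against 2.7, 14.6, 5.64 and 13.4 CPM in wild-type 1 to 4.

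B and plasma cell markers, with 4 of 9 tested, had a sum that ran against Chil3, carried by Ighm. It was 211, 467 and 269 CPM in knockout 1 to 3, against 240, 83.6, 229 and 95.3 CPM in wild-type 1 to 4, with an r of -0.92 with Chil3, -0.97 with Ccl24 and -0.98 with Socs2. Most of it was Ighm, which encodes the heavy chain of immunoglobulin M, with 192, 422 and 237 CPM in knockout 1 to 3, against 203, 36.6, 201 and 49.4 CPM in wild-type 1 to 4, and Jchain was at 0. Of the other tested markers Cd79b had an r of -0.66 with Chil3, while Sdc1, which other cells also express, had 0.89, with 9.46, 3.01 and 3.71 CPM in knockout 1 to 3, against 16.3, 33.3, 12.5 and 37.5 CPM in wild-type 1 to 4. Macrophage markers as a sum had an r of -0.29 with Chil3 and 0.84 with Il4ra, and Adgre1, which encodes the F4/80 antigen of the sort, had -0.83 with Chil3. The immediate early and dissociation genes, with 11 of 11 tested, had an r of 0.07 with Chil3.

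**Figure D5:**
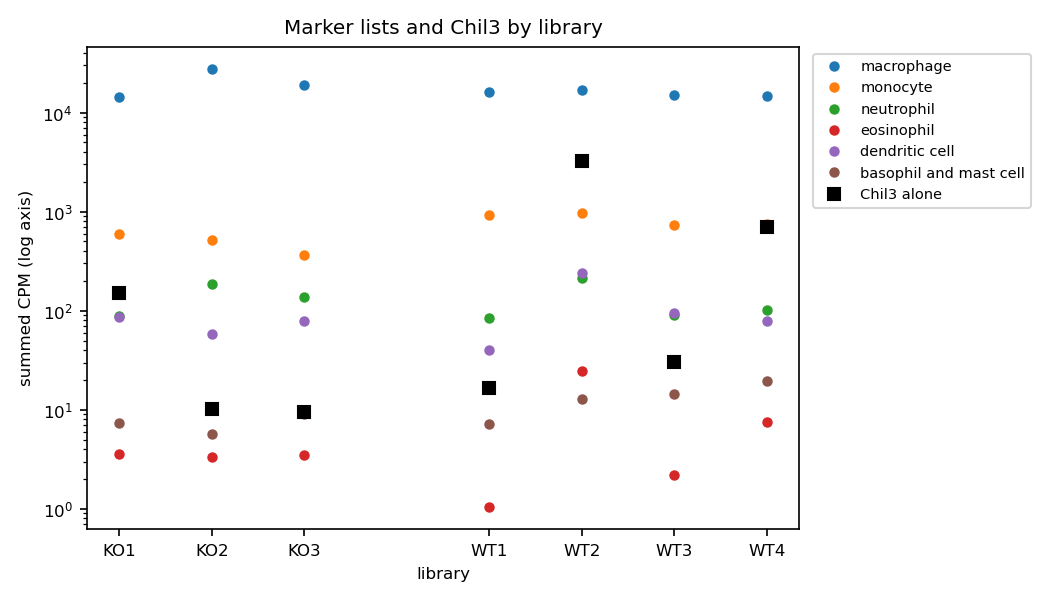
Summed CPM of the marker lists of 6 cell types and CPM of Chil3 alone (vertical log axis) in knockout mice 1 to 3 (KO, left) and wild-type mice 1 to 4 (WT, right). The macrophage sum stays between 14294 and 27570 CPM while Chil3 lies between 9.48 and 3241 CPM, and the eosinophil sum peaks at 24.5 CPM in wild-type 2.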

How the data were processed

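The members and the gene lists were chosen with earlier results of these data known. Per the labels' protocols, libraries were prepared from polyA RNA with a SMART-seq kit. The authors deposited 1 table of read counts per gene, whole numbers without normalization, with between 22449772 and 30483733 counts per library. The submitters' processing notes name BWA 0.7.12, cutadapt 1.15, DESeq2 1.24.0 and FastQC 0.11.5 and the build GRCm38, with no roles. The sources used here do not give the counting program or its use of strand. If reads were mapped to the genome without splicing, those across exon junctions could be missed, which was not tested.

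Gene names came from the GENCODE annotation of GRCm38 by Ensembl identifier. Of 53379 identifiers, 53274 (99.8%) matched. Genotypes were compared with edgeR 4.0.16 in R 4.3.3 (quasi-likelihood F test, robust estimation, TMM scaling, default filter on low counts by group, Benjamini-Hochberg adjustment over 16234 genes, threshold 0.05), knockout minus wild type, with the SE derived from the fold change and F statistic. The common biological coefficient of variation was 42.9%. CPM are TMM-scaled, and a prior count of 2 was added for log2 CPM of single genes. For log2 sums of gene lists a small constant in CPM was added instead. Marker sums exclude members. Correlations were computed in Python 3.11.15, counted at r of 0.8 or more, and carry no p. Libraries of 1 group differed far beyond sampling noise (chi-square per degree of freedom from 29.5 to 322), so each counted as 1 replicate.

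Named genes are all 10 members, the 5 genes most like Chil3, Retnla and Ccl24 each, leaving out unnamed gene models, pseudogenes, receptor segments, Y-linked genes and Xist, the 2 most expressed non-members of each pathway list (as none passed the threshold), and markers whose sum is given. The alternatives were other scaling factors, filters, prior counts and thresholds, DESeq2 1.42.0, limma voom 3.58.1, the mouse number as a block and each library left out.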

Additional observations from a re-analysis of the deposited data

How the results depend on the processing

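Of 160 member fold changes under the alternatives, 0 had an adjusted p below 0.05 (0.167 to 1) and 142 kept their sign. The mouse numbers do not pair the mice by the labels: deviations of same-numbered libraries correlated at 0.07, 0.05 and 0.09, and 2 of 3 knockout libraries correlated best with their own number. With the replicate block the log2 fold change was 0.505 for Ccl24, 0.275 for Ear2, -0.0494 for Il4ra, -1.79 for Chil3, -0.28 for Retnla and -0.315 for Socs2, and 1 gene was called in place of 6. Without scaling factors the median of all genes moved from -0.00 to -0.11, and the log2 fold changes were -0.117 for Il4ra, -0.0652 for Tgm2 and -0.028 for Klf4. Leaving out each library gave -6.7 to -2.13 for Chil3, -5.39 to -4.07 for Retnla, -5.03 to -1.36 for Ccl24, -4.31 to -2.56 for Ear2, -1.74 to -0.623 for Socs2, -0.105 to 0.162 for Il4ra, -0.305 to 0.0754 for Stat6, -0.163 to 0.655 for Irf4, -0.542 to 0.261 for Tgm2 and -0.135 to 0.318 for Klf4. The highest values of Chil3, Retnla, Ccl24, Ear2 and Socs2 came without wild-type 2. Genes called numbered 11 without a filter, 114 with DESeq2 and 3 to 14 without 1 library (14 without knockout 1, 3 without knockout 2). Member pairs at r of 0.8 or more numbered 11 to 26 without 1 library (26 without knockout 1) and 29 in the 4 wild-type libraries alone, and 10 without wild-type 2 and wild-type 4, an alternative added after the data were seen. The cause of these changes was not tested. The lowest counts of a member in a single library were 27 for Ear2 and 34 for Retnla, both in wild-type 1.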
